A study of Mus musculus with 8 samples.

Results

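The 10 genes described here belong to the vessel wall of the cochlea in normal mice: the endothelial genes Pecam1, Cdh5, Cldn5, Kdr, Flt1, Tek and Tie1, and the pericyte genes Pdgfrb, Rgs5 and Cspg4. They were chosen by symbol among the 18193 genes that have a probe set naming 1 gene alone, and all 10 have one, with 19 probe sets between them. Total RNA came from the cochlear soft tissue of 8 CBA/CaJ mice, an inbred strain with good hearing, with the ears of each mouse pooled and hybridised to 1 Affymetrix Mouse Genome 430 2.0 array. The 8 mice form 1 group of normal cochlea, all given urethane (300 mg/kg) and perfused with saline to clear the blood, and the labels give neither sex nor age. Without a second group, the data show levels and the differences between mice, and hold no contrast between conditions.

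Endothelial cells line blood vessels, and pericytes sit on the outside of capillaries in the same basement membrane. In the stria vascularis, the secretory epithelium of the lateral wall, a dense capillary bed with many pericytes supplies the cells that produce endolymph, and its endothelium forms the blood-labyrinth barrier. Pericytes are drawn to new vessels by platelet-derived growth factor acting on Pdgfrb, while vascular endothelial growth factor and the angiopoietins act on endothelial receptors. The collected tissue held the spiral ligament, the organ of Corti and the modiolus, the central core with the auditory nerve, so vessels of all these regions gave RNA, and the values cannot be assigned to strial vessels. In such bulk tissue fewer cells of a type and less RNA per cell cannot be told apart.

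Windows of 250 bases before the start site are shown for Tek and Cldn5, the pair that varied most alike between the mice, for the receptor genes Kdr and Flt1, which bind the same growth factor, and for Rgs5, whose brightest probe set varied least. They come from RefSeq in build GRCm38.p6, 5′ to 3′ on the gene's strand. Windows were read for 7 of the 10 genes, and not for Pecam1, Cdh5 and Pdgfrb. The windows lie at chr4:94739039-94739288 (plus strand), chr16:18776597-18776846 (plus strand), chr5:75978456-75978705 (minus strand), chr5:147726012-147726261 (minus strand) and chr1:169655251-169655500 (plus strand). Capitals mark AGGAAG or its reverse complement CTTCCT, letters that ETS transcription factors, regulators of many endothelial genes, can bind, and TATAAA or TTTATA, the letters of a TATA box.
Tek: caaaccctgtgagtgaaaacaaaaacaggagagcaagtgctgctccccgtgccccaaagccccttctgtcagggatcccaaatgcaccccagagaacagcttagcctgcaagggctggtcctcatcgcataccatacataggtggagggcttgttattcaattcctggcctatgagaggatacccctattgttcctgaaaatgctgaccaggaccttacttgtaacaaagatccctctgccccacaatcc
Cldn5: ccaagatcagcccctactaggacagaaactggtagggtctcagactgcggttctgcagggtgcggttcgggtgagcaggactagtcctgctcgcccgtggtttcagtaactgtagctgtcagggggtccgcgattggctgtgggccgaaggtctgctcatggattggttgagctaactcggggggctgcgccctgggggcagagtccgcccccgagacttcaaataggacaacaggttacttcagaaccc
Kdr: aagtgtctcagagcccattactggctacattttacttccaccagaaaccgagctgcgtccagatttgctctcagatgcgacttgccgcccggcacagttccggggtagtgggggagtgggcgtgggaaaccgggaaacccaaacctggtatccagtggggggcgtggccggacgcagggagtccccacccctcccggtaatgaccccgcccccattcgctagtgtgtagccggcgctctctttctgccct
Flt1: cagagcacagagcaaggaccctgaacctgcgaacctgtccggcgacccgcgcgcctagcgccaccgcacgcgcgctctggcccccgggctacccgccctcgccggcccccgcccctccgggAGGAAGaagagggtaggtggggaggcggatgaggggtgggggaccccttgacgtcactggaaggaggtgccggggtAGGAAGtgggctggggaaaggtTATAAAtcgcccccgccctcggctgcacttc
Rgs5: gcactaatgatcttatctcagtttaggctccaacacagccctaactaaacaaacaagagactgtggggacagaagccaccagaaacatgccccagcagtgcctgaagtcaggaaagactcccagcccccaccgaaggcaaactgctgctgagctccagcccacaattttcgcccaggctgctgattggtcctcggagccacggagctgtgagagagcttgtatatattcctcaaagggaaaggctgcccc
The ETS letters occurred 2 times in the window of Flt1, 1 time in that of Tie1 and in none of the other 5. Of all 32851 such windows in the table, 29.5% held them. The TATA letters stood in the window of Flt1 alone among the 7, against 12.4% of all windows. The shorter core GGAA, which the AGGAAG letters contain, was in 93.4% of all windows, in that of Kdr 4 times and of Tek 2 times, and did not occur in that of Cldn5. Tek and Cldn5 thus held neither of the marked motifs in these windows, and a match or its absence describes letters and no binding.

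Of the 10 genes, 8 were above background in every mouse, and Pecam1 and Tie1 were not. Every value is a linear signal in arbitrary units. A gene was read by its brightest probe set and called detected when that signal exceeded the background threshold on all 8 arrays. The threshold was the 95th percentile of 126 probe sets for odorant and vomeronasal receptors and for genes of unrelated organs, and ran from 36.8 in mouse 7 to 79.5 in mouse 5. Of all genes 63.4% were detected by this rule, so 8 of 10 is a share not far from it. With the 99th percentile as threshold 5 of the 10 were detected, and the share of all genes at that threshold was not computed. The arrays correlated at r = 0.945 to 0.960 across all probe sets. Mouse 1 stood apart on the first principal component of the detected genes with a loading of 0.82, against -0.32 to 0.18 in the others, and the spread, the pairs and the most alike genes below are also given without it where that moved them. A probe set's signal has its own scale, so no level is set against that of another gene. Precision is limited by there being 8 arrays, and a mouse number is only a name.

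**Figure D1:**
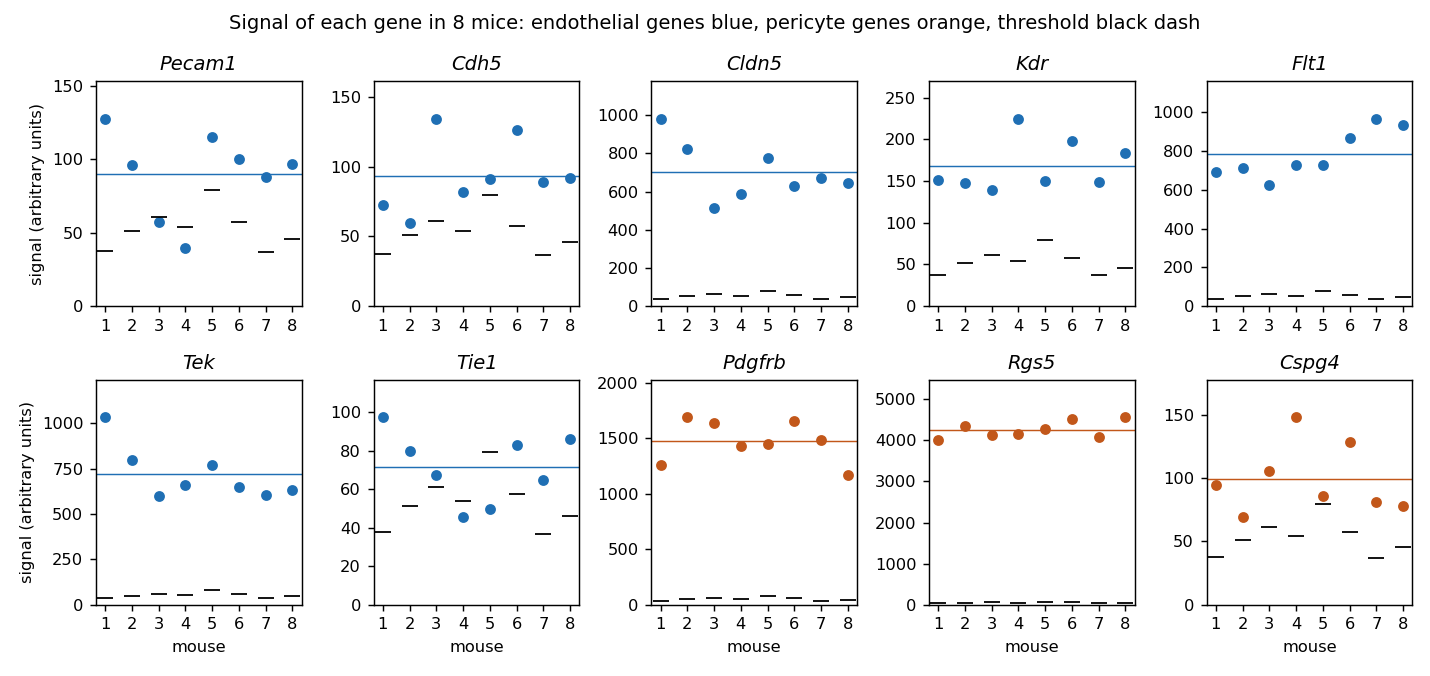
Signal (arbitrary units, linear axis from 0) of the brightest probe set of each gene in each of the 8 mice; the horizontal line is the mean, and black dashes are the background threshold of each array. Pecam1 lies under the threshold in mice 3 and 4 and Tie1 in mice 4 and 5, while Rgs5 stays between 3998 and 4560.

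The endothelial junction genes differed between mice in different ways. Pecam1 encodes an adhesion molecule (CD31) between endothelial cells, which platelets and leukocytes also carry. It measured 90.2 ± 28.9 (SD, n = 8), with the lowest value of 39.8 in mouse 4, a median of 96.6 and the highest value of 127.9 in mouse 1. In mice 3 and 4 it lay under those arrays' thresholds (57.4 against 61.0, and 39.8 against 53.9). Cdh5, the VE-cadherin of endothelial adherens junctions, ran from 59.4 in mouse 2 through a median of 90.5 to 134.6 in mouse 3. Its mice at the top, 3 and 6 (126.5), stood above the other 6, whose highest value was 92.0. Cldn5, the main claudin of tight junctions at blood-tissue barriers, ran from 513 in mouse 3 through a median of 657 to 982 in mouse 1, with 821 in mouse 2. Mouse 3 was thus the highest mouse for Cdh5 and the lowest for Cldn5.

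The receptors of vascular endothelial growth factor were each detected, and shared their lowest mouse and 2 of their 3 high mice. Kdr (VEGFR2), the main signalling receptor, measured 168 ± 30.6 (SD, n = 8), from 140 in mouse 3 through a median of 150.4 to 225 in mouse 4. Mice 4, 6 (198) and 8 (183) lay above the other 5, which were all between 140 and 151. Flt1 (VEGFR1), which binds the growth factor tightly and limits its action, measured 783 ± 124 (SD, n = 8), from 627 in mouse 3 through a median of 728 to 968 in mouse 7. Its 3 high mice were 7, 8 (934) and 6 (870.0), and the other 5 were at most 728. The r between Kdr and Flt1 was 0.32 and Spearman's rho 0.45 (n = 8; two-sided exact permutation p = 0.448 and 0.267; adjusted over all pairs, p = 0.820 and 0.777). Without the 2 mice farthest from the median of Kdr, 4 and 6, r was 0.66. With the mean of all probe sets of each gene in place of the brightest one r was -0.35, so the sign depends on which Flt1 probe sets are read.

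The angiopoietin receptor Tek and its relative Tie1 shared their highest mouse. Tek (TIE2) maintains quiescent vessels. It measured 719 ± 147 (SD, n = 8), from 601 in mouse 3 through a median of 654.5 to 1034.5 in mouse 1, where it stood above the next value of 796 in mouse 2. The other 6 mice lay between 601 and 772. The SD of Tek was 0.27 on the log2 scale with all mice and 0.16 without mouse 1. Tie1, an orphan receptor that pairs with Tek, ran from 45.3 in mouse 4 through a median of 73.7 to 97.3 in mouse 1. It was under the thresholds of mice 4 and 5 (45.3 against 53.9, and 49.8 against 79.5), so its differences lie close to background. The r between them was 0.35 and rho 0.21 (n = 8; two-sided exact permutation p = 0.390 and 0.619), and r was -0.50 without mice 1 and 2, the 2 farthest from the median of Tek. Without mouse 1 alone r was -0.13.

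Among the pericyte genes the brightest probe set of Rgs5 was steadier than those of the others. Rgs5, a regulator of G-protein signalling and a common pericyte marker, measured 4258 ± 209 (SD, n = 8), from 3998 in mouse 1 through a median of 4211 to 4560 in mouse 8. The highest value was 1.14 times the lowest. Pdgfrb, the receptor that pericytes and fibroblasts carry for platelet-derived growth factor, measured 1471 ± 189 (SD, n = 8), from 1171 in mouse 8 through a median of 1464.5 to 1689 in mouse 2. Cspg4 encodes the NG2 proteoglycan of pericytes, also carried by oligodendrocyte precursors. It measured 98.9 ± 27.2 (SD, n = 8), from 68.9 in mouse 2 through a median of 90.3 to 148 in mouse 4, and mice 4 and 6 (129) stood above the other 6. Of 7 measured genes of the oligodendrocyte lineage 2 were detected (28.6%, against 63.4% of all genes), Mbp and Sox10, which Schwann cells also express. Olig2, a defining gene of the precursors of this lineage, was above background on 0 of 8 arrays. The myelin gene Mog was 314.5 in mouse 1 and 355.8 in mouse 6 against 2.50 to 28.9 in the others, and Olig1 was 87.0 and 89.4 there against 28.9 or less. Mag was also highest in these mice (115.5 and 128.0), as was the precursor gene Gpr17 (53.2 and 47.1, above the threshold in mouse 1 alone). Mouse 6 was one of the high mice for Cspg4 and mouse 4, the highest, was not among these, and the part of this lineage in the Cspg4 values was not tested.

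The spread between mice of the 10 genes had a median of 0.28 (SD of log2 signal), and that of the 8 detected members 0.26, against 0.18 over all 11539 detected genes. Over 0.5 were 2.98% of the detected genes and 0 of the 8 detected members, with Pecam1, which is not detected by the rule, at 0.56. Without mouse 4 the SD of Pecam1 was 0.37. The SD of the dim genes Cdh5 (0.39), Cspg4 (0.38) and Tie1 (0.39) was followed by those of the brighter Cldn5 (0.30), Tek (0.27), Kdr (0.25), Flt1 (0.22) and Pdgfrb (0.19). Among the 500 detected genes nearest in mean signal, the SD of Cldn5 stood at the 88.4th percentile, that of Tek at the 80.6th, that of Kdr at the 42.2nd and that of Rgs5 at the 17.0th. For Pecam1 it was the 95.2nd, for Cdh5 the 79.2nd, for Tie1 the 78.2nd, for Cspg4 the 78.0th, for Flt1 the 73.6th and for Pdgfrb the 69.0th. By this rank 8 of the 10 were above the middle of detected genes of like signal. Pecam1 and Tie1 are in that count but did not pass the threshold on all arrays, which the genes they are ranked among did. That filter limits low values near background, so these ranks are not like for like. All the ranks include mouse 1. Without it the SD was 0.23 for Cldn5 and 0.16 for Tek, and ranks were not computed. Rgs5, at 0.07, lay at percentile 3.61 of all detected genes. These values are those of the brightest probe set. With the mean of all probe sets of a gene, dim ones included, the SD was 0.22 for Rgs5, 0.07 for Flt1 and 0.58 for Cspg4. By that mean Flt1 varied least of the 10, although its detected probe sets had an SD of 0.22, 0.22 and 0.29. Its dim probe set 1454037_a_at had r = -0.80 with the brightest.

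**Figure D2:**
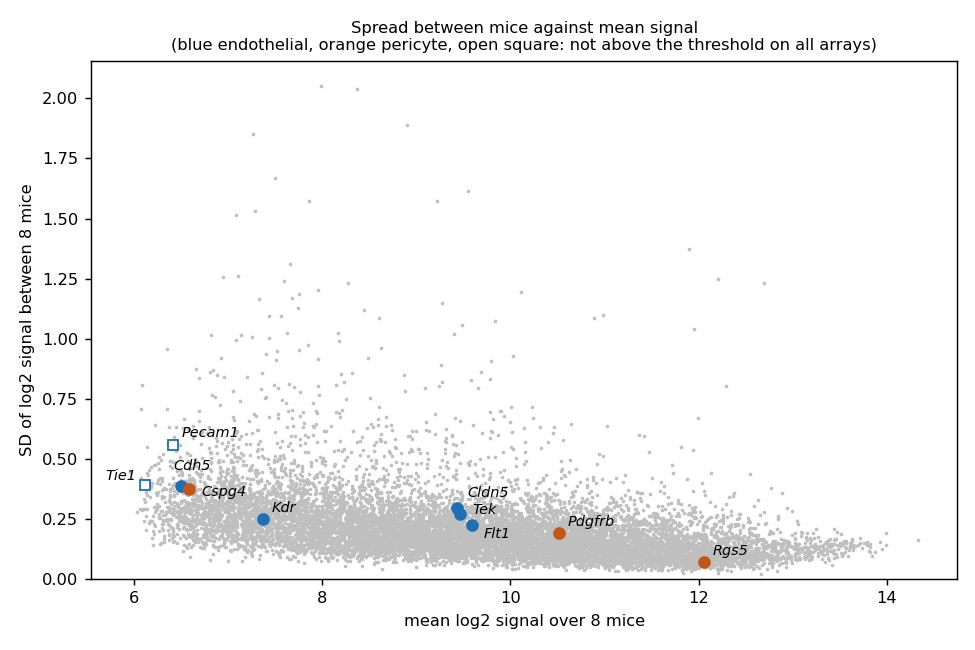
SD of log2 signal between the 8 mice against mean log2 signal; each grey dot is 1 of the 11539 detected genes, filled circles are detected endothelial (blue) and pericyte (orange) genes, and open squares are Pecam1 and Tie1. Rgs5 sits at the lower edge of the cloud (SD 0.07) and Pecam1 is the most variable of the 10 (SD 0.56).

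Agreement between probe sets of 1 gene passed the test for a pair of Flt1 probe sets. Among the detected genes with at least 2 detected probe sets, 4966 in all, the 2 brightest passed the test of agreement in 11.2% (one-sided exact permutation test of Pearson's r over the mice, Benjamini-Hochberg adjusted p under 0.05). Flt1, Pdgfrb and Rgs5 could be tested, and 1 of these 3 passed. For Flt1 probe sets 1451756_at and 1440926_at had r = 0.91 and rho 0.81 (n = 8; exact permutation p = 0.00166, adjusted p = 0.0282), and r = 0.72 without mice 7 and 8. Both were lowest in mouse 3 and highest in mouse 7, the latter at 968 and 372. The adjusted exact permutation p rose above 0.05 when any of mice 1, 3, 5, 6, 7 or 8 was left out, where it ran up to 0.0906, while r stayed between 0.86 and 0.97.

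The remaining Flt1 probe sets did not follow these. Probe set 1419300_at was 134.7 in mouse 8 and 182 to 242 in the others, although mouse 8 was the second highest on both probe sets above. Its r with 1451756_at was -0.32 and rho 0.10 (n = 8; two-sided exact permutation p = 0.485 and 0.840), and r was 0.22 without mice 7 and 8. The fourth, 1454037_a_at, had a signal of 36.6 to 56.7, above the threshold on 2 arrays only, and was lowest in mouse 7. Flt1 is known to have membrane-bound and soluble transcripts with different 3′ ends; which transcript each probe set reads was not examined here.

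Pdgfrb was read by a pair of bright probe sets that differed in mouse 1. Probe set 1436970_a_at gave 1256 in mouse 1, its second lowest value, whereas 1417148_at gave 1410 there, its highest, against 785 to 1126 in the other mice. Both were lowest in mouse 8 (1171 and 785). Their r was 0.02 and rho 0.33 (n = 8; two-sided exact permutation p = 0.962 and 0.428; adjusted one-sided p = 0.720), and r without mice 1 and 8 was 0.51. A statement that Pdgfrb was high or low in mouse 1 therefore depends on the probe set.

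Rgs5 was steady on all 3 of its detected probe sets. The SD of log2 signal was 0.07 for 1420941_at and for 1417466_at and 0.13 for 1420942_s_at, and each had its lowest value in mouse 1. The first 2 had r = 0.55 and rho 0.60 (n = 8; two-sided exact permutation p = 0.162 and 0.132; adjusted one-sided p = 0.227), and r = 0.63 without mice 6 and 8. Probe set 1420942_s_at stood out in mouse 6, at 1381 against 1018 to 1140 in the others. The fourth, 1420940_x_at, was above background on 0 of 8 arrays, at 11.1 to 53.4. The second probe sets of Cdh5 (17.7 to 46.2) and of Cspg4 (4.40 to 27.4) were also above background on 0 of 8. Both Cdh5 probe sets had their highest values in mice 3 and 6.

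**Figure D3:**
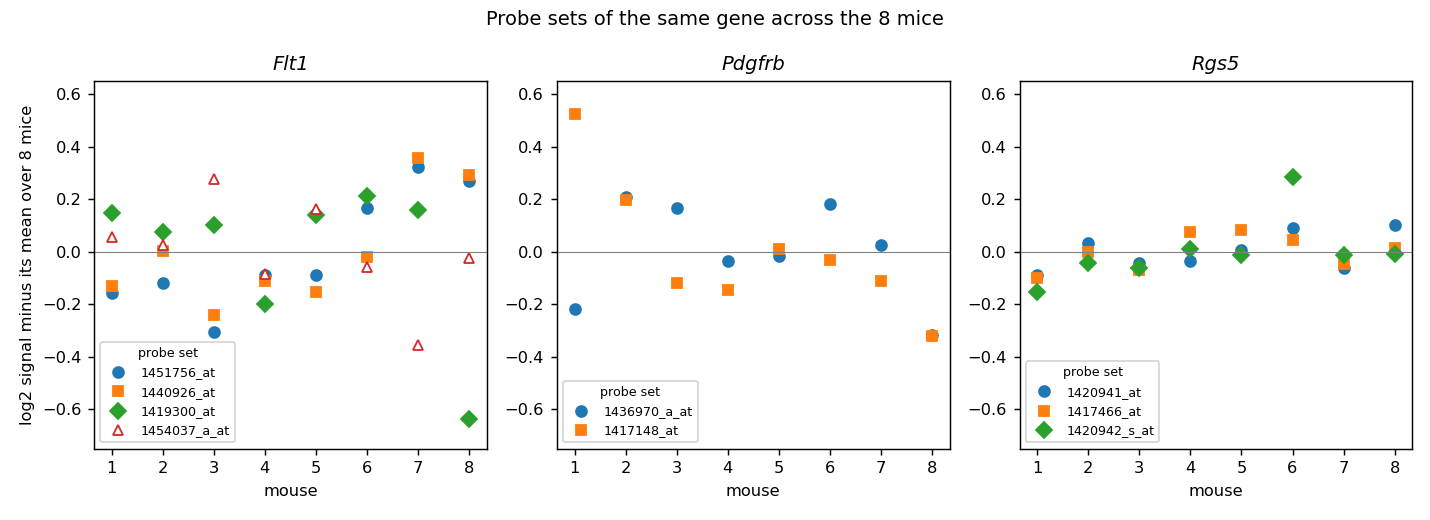
Log2 signal of each probe set minus its own mean over the 8 mice, for Flt1, Pdgfrb and Rgs5; open triangles mark a Flt1 probe set above background on 2 arrays only. The Flt1 probe sets part in mouse 8, those of Pdgfrb in mouse 1, and those of Rgs5 lie near 0 except 1420942_s_at in mouse 6.

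Pairs of the 10 genes had r of both signs. Each of the 8 detected members was compared with every other detected gene, 92276 pairs in all, by a two-sided exact permutation test of Pearson's r over all 40320 pairings of the mice. After Benjamini-Hochberg adjustment over all these pairs 0 (0%) passed 0.05, and the smallest adjusted exact permutation p was 0.176. With 8 mice the smallest p a pair can have is 2.48e-05, so at least 46 pairs would have to reach it for any to pass, and the count of 0 is largely set by the design. Without adjustment 6.02% of the pairs had r above 0 and p under 0.05, and 5.46% had r below 0 and p under 0.05. Without mouse 1 the first share was 2.96%, and with any other mouse left out 4.85% to 6.07%. Of the 28 pairs between detected members, 1 was of the first kind and 1 of the second, which is near that background, and without mouse 1 again 1 was of the first kind. Of the 10 pairs within the detected endothelial genes 4 had r above 0 (median r -0.18), of the 3 pericyte pairs 2 (median 0.04), and of the 15 pairs across the classes 6 (median -0.19).

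The pair most alike was Cldn5 and Tek. Their r was 0.91 and rho 0.76 (n = 8; two-sided exact permutation p = 0.00213 and 0.0368; adjusted over all pairs, p = 0.207 and 0.529). Both were highest in mouse 1, second highest in mouse 2 and lowest in mouse 3. Without mice 1 and 3 r was 0.83, and without mouse 1 alone 0.84. The pair most opposed was Cdh5 and Cldn5. Its unadjusted p was above 0.05 without any of mice 1, 2, 3, 7 or 8 (up to 0.170), after quantile normalization (0.0723) and with the mean of all probe sets (0.144). It had r = -0.73 and rho -0.71 (n = 8; two-sided exact permutation p = 0.0395 and 0.0576; adjusted over all pairs, p = 0.402 and 0.571), and r = -0.53 without mice 2 and 3. Pecam1 and Cdh5, the common pan-endothelial markers, had r = -0.22 and rho -0.10 (n = 8; two-sided exact permutation p = 0.600 and 0.840). Leaving out mice 3 and 4 gave r = -0.14. Without mouse 3 alone r was 0.03, so the sign was not settled. Pecam1 and Cldn5 had r = 0.74 and rho 0.69 (n = 8; two-sided exact permutation p = 0.0345 and 0.0694), and r = 0.74 without mice 3 and 4, with no adjusted p because Pecam1 was not detected on all arrays.

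Read by their brightest probe sets in all 8 mice, the pericyte genes gave r near 0 with each other, but these values were not settled. With 1 mouse left out, r ran from -0.26 to 0.70 for Pdgfrb with Rgs5. For Pdgfrb with Cspg4 it ran from -0.09 to 0.49. The bright Pdgfrb probe sets had r = 0.02 with each other. Pdgfrb and Rgs5 had r = 0.04 and rho 0.12 (n = 8; two-sided exact permutation p = 0.932 and 0.793; adjusted over all pairs, p = 0.983 and 0.967), and r = 0.54 without mice 1 and 8. Without mouse 1 alone their r was -0.26. Pdgfrb and Cspg4 had r = 0.15 and rho -0.05 (n = 8; two-sided exact permutation p = 0.729 and 0.935; adjusted over all pairs, p = 0.926 and 0.991), and r = -0.23 without mice 1 and 8. Across the classes Cdh5 and Pdgfrb had r = 0.23 and rho 0.05 (n = 8; two-sided exact permutation p = 0.578 and 0.935; adjusted over all pairs, p = 0.874 and 0.991), and r = 0.66 without mice 2 and 3.

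**Figure D4:**
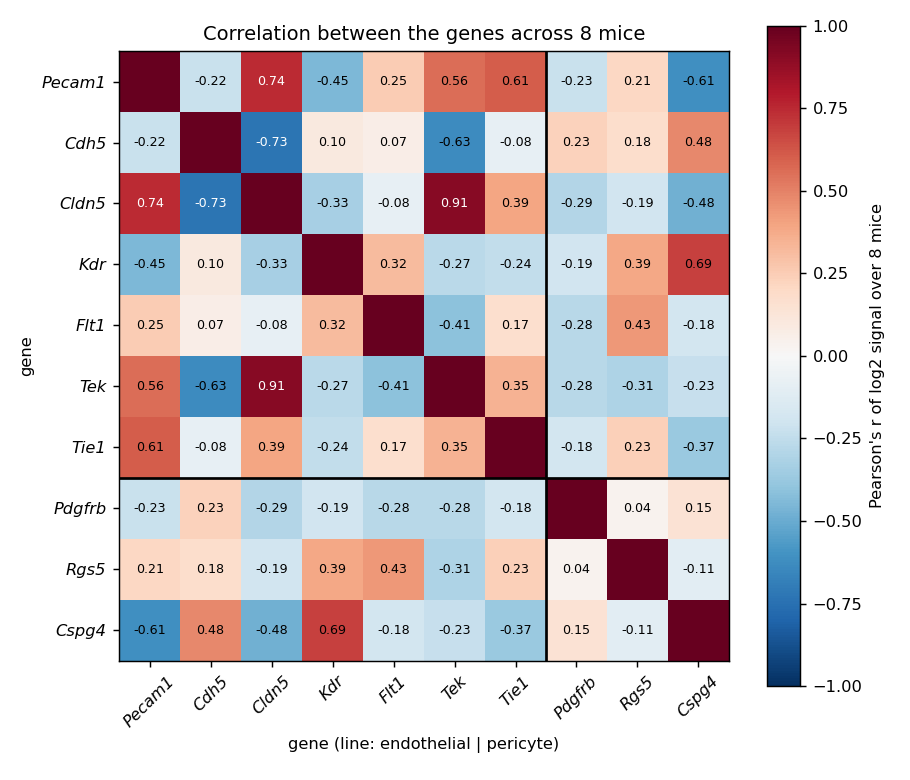
Pearson's r of log2 signal over the 8 mice for each pair of the 10 genes (colour and number, from -1 to 1); black lines part endothelial from pericyte genes. Cldn5 with Tek (0.91) is the highest value and Cdh5 with Cldn5 (-0.73) the lowest, and the endothelial block holds both signs.

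Of the 10 genes 4 were highest in mouse 1 (Pecam1, Cldn5, Tek and Tie1) and 4 lowest in mouse 3 (Cldn5, Kdr, Flt1 and Tek). Over all genes 24.7% were highest in mouse 1 and 11.9% lowest in mouse 3, and over the detected genes 33.7% and 13.2%. The median deviation of the 7 endothelial genes in mouse 1 was 0.49 (log2), and that of the 5 detected ones -0.13, so its sign rests on Pecam1 and Tie1, which lie close to background. Over all detected genes it was 0.05. The 3 pericyte genes had a median deviation of -0.09 in mouse 1 and were farthest from 0 in mouse 8, at -0.29, where Rgs5 itself was at its highest, the 10 other detected pericyte genes had a median of 0.00 and the 22 other detected endothelial genes -0.11.

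Genes of other cells moved between these mice, and some of these cells could carry the same transcripts. Of 9 leukocyte and platelet genes 3 were detected (33.3%, against 63.4% of all genes). The summed signal of all 9 ran from 576 in mouse 1 to 3687 in mouse 6. The platelet gene Ppbp, in this sum but not detected by the rule, measured 15.3 and 1297.5 in these mice. The pan-leukocyte gene Ptprc ran from 75.7 in mouse 1 to 280.2 in mouse 3, and the part of leukocytes and platelets in the Pecam1 values was not tested. The integrin gene Itgam of myeloid cells and the T cell gene Cd3e were above background on 0 of 8 arrays. The neutrophil genes S100a8 (528 to 9220.2), S100a9 (1024 to 13758) and Camp (72.0 to 2010.0) were detected and lowest in mouse 7. Detected neutrophil genes had their highest median deviations (log2) in mice 3 and 6, at 1.28 and 1.29, the high mice of Cdh5. There red cell genes were at 1.42 and 1.58, leukocyte and platelet genes at 0.91 and 0.61, and bone genes at 0.46 and 0.43. The part of such cells in the Cdh5 values was not tested. The platelet gene Pf4 ran from 241 in mouse 1 to 1638 in mouse 6. All 8 fibroblast genes were detected (100%, against 63.4% of all genes), with a summed signal from 16020.0 in mouse 8 to 22725 in mouse 5. Pdgfra, which marks fibroblasts and not pericytes, ran from 3128 in mouse 7 to 3703 in mouse 6, and the part of fibroblasts in the Pdgfrb values was not tested. Strial cell genes were detected for 9 of 10 (90%, against 63.4% of all genes). The summed signal of all 10 ran from 37238 in mouse 7 to 46039 in mouse 1, the mouse where Cldn5 and Tek were highest. The list did not move as 1 in mouse 1. Kcne1, Kcnq1, Esrrb, Bsnd, Dct, Tyr and Met were highest there, while Kcnj10 (4112.5) and Cldn11 (4920.4) were lowest there. The part of strial cells was not tested.

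**Figure D5:**
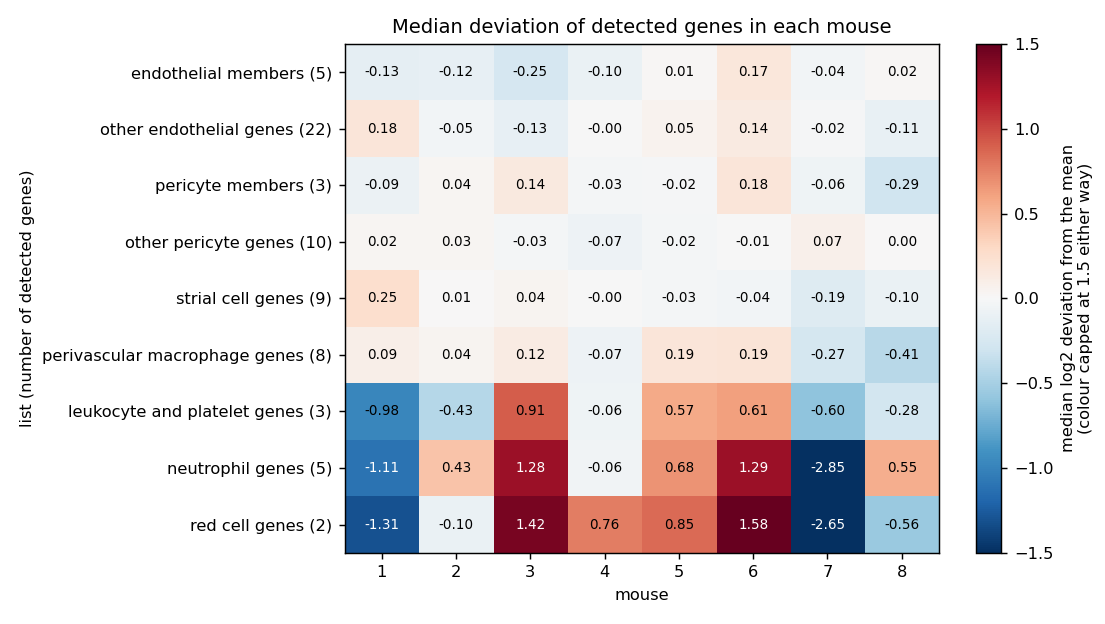
Median deviation (log2, each gene from its own mean over 8 mice) of the detected genes of each list in each mouse; the number of detected genes is in brackets, and colours are capped at 1.5 either way. The 4 endothelial and pericyte lists stay between -0.29 and 0.18, while neutrophil genes run from -2.85 in mouse 7 to 1.29 in mouse 6.

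Most other genes of vessels in the lists were detected, 75 of 90 measured (83.3%), against 63.4% of all genes; many of these genes are also expressed outside vessels. Another 10 passed the threshold on part of the arrays and 5 on no array. Of 25 other endothelial genes 22 were detected. Emcn, an endothelial sialomucin, measured 3707 ± 331, the ETS factor gene Fli1 1440.2 ± 326 and the phosphatase gene Ptprb, which acts on Tek, 726 ± 78.3 (SD, n = 8). Sox7, Sox17 and Nos3 (endothelial nitric oxide synthase) were above background on 6, 4 and 4 arrays. The most variable was Tal1, a factor of blood and vessel precursors, at 39.3 in mouse 1 and 238.0 in mouse 3, the mice where red cell genes had deviations of -1.31 and 1.42. All 15 genes listed for barrier endothelium were detected, among them the thyroid hormone and glucose carriers Slco1c1 (8676 ± 501) and Slc2a1 (7770.2 ± 353) and the junction gene Tjp1 (6181 ± 448; SD, n = 8), none of which is confined to endothelium. Lef1, a WNT pathway factor, varied most, from 679 in mouse 1 to 1438 in mouse 8.

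Of 13 other pericyte genes 10 were detected, and of 10 smooth muscle genes 7 (76.9% and 70.0%, against 63.4% of all genes). Tbx18, also known in fibrocytes of the spiral ligament, measured 3250.2 ± 345, Art3 1299 ± 324 and Heyl, a Notch target, 832 ± 98.4 (SD, n = 8). Of the detected ones Art3 varied most, from 808 in mouse 6 to 1624 in mouse 4. Foxs1 was above background on 0 of 8 arrays (2.90 to 19.2). The myosin light chain kinase gene Mylk (3730 ± 409), smooth muscle actin, Acta2 (726 ± 160), and Tagln (652 ± 127; SD, n = 8) were detected. Cnn1 and Actg2 were above background on 0 of 8 arrays. Of the detected ones Acta2 varied most and was highest in mouse 5, at 979, where the 2 detected skeletal muscle genes had a median deviation of 0.83.

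Ligands and partners of the receptors were detected for 17 of 22 genes (77.3%, against 63.4% of all genes). Nrp1, a coreceptor of the growth factor receptors, measured 3166 ± 186, and the platelet-derived growth factor genes Pdgfc and Pdgfa 2717 ± 193 and 2647 ± 166 (SD, n = 8). The ligands of the receptors above are named after their values were seen. Vegfa, the ligand of Kdr and Flt1, ran from 287 in mouse 1 through a median of 427 to 556.5 in mouse 8. Angpt1 and Angpt2, the ligands of Tek, measured 134 ± 27.5 and 99.8 ± 25.8 (SD, n = 8). Pdgfb, the main ligand of Pdgfrb and a product of endothelial cells, was above background on 3 of 8 arrays (41.3 to 78.6). Pgf, the placental growth factor that binds Flt1, was the most variable of the detected ones, from 69.7 in mouse 6 to 199.7 in mouse 1. Angpt4 and Dll4, a Notch ligand of arteries and sprouts, were above background on 0 of 8 arrays. Of 5 lymphatic genes 4 were detected, including Pdpn (4535 ± 258), Prox1 (343 ± 56.8) and Flt4 (248 ± 51.0; SD, n = 8), which other cochlear cells can also express, and the most variable of the detected ones was Reln (109.2 to 304.0). Of 10 perivascular macrophage genes 8 were detected, including Csf1r (1335 ± 288), Mrc1 (709 ± 143) and F13a1 (364 ± 84.3; SD, n = 8), and Cd163 varied most (93.1 to 254).

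The endothelial members and the other endothelial genes gave pairs of both signs. Within the 22 other detected endothelial genes 143 of 231 pairs had r above 0, with a median r of 0.14. At an unadjusted two-sided exact permutation p under 0.05, 11 of them (4.76%) were positive and 5 (2.16%) negative. The share among pairs of any detected genes outside the members was not computed. Of 110 pairs between the 5 detected endothelial members and the 22 others, 61 had r above 0, with 10 pairs (9.09%) positive and 8 (7.27%) negative at an unadjusted two-sided exact permutation p under 0.05, beside 6.02% and 5.46% over all pairs (2.96% positive without mouse 1, where the members' share was not computed). Tek and Cldn5 had positive pairs 5 and 4 times of 22 and negative ones 2 and 3 times. Kdr and Cdh5 had 0 positive pairs, with 0 and 2 negative ones, and Flt1 had 1 of each. The share of each single member over all detected genes is not given, so the counts per member have no background of their own. For the pericyte members 0 of 30 pairs with the 10 other pericyte genes were positive and 2 negative. Within the 5 detected neutrophil genes, by the same test, 10 of 10 pairs were positive, with r from 0.940 to 0.998, and within the 8 detected perivascular macrophage genes 6 of 28. These lists differ in their spread between mice (median SD 1.37 for neutrophil and 0.29 for macrophage genes), and the difference between lists was not tested.

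The detected genes whose values across the 8 mice were most like each member are given as a description, since among so many genes high r is found for any pattern. Tek was followed by Farsa (r = 0.99), Rmdn3 (0.99) and Acat1 (0.98), and Cldn5 by Mapkapk5 (0.99), Nubp1 (0.99) and Lmf1 (0.98), all highest in mouse 1. Without mouse 1 these 6 r were 0.96 to 0.99. For Flt1 these were Gata2 (0.96), Chl1 (0.95) and Arpc4 (0.94), and for Kdr Parp1 (0.97), Eepd1 (0.92) and 4930428B01Rik (0.90). For Cdh5 they were Cdc42bpg (0.92), Nkd1 (0.91) and Anks1 (0.91). For Rgs5 they were Itpkb (0.98), Glyr1 (0.91) and Btbd10 (0.90), for Pdgfrb Naa40 (0.97), Carhsp1 (0.94) and Samd11 (0.93), and for Cspg4 Papola (0.94), Ncapd3 (0.94) and Platr22 (0.91). None of the 24 genes is in the vessel lists, which hold only 75 of the 11539 detected genes, so none is near the share over all genes.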

How the data were processed

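Each probe set's value is an intensity on a linear scale, deposited by the authors and made with MAS5 per the submitters' processing notes; version and genome build are not given in the sources used here. Each array was scaled by the authors to a common level: the mean without the lowest and highest 2% was 500.0 on all 8. The table held 0 columns of other samples, and no array was left out. Of 45101 probe sets 34945 named 1 gene in the platform annotation, 932 several and 9224 none; 34741 were matched by Entrez identifier to current symbols, of which 0 changed.

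Signals under 1 were set to 1 before log2. The probe set of highest mean signal stood for its gene, and _x_at probe sets only where there was no other. Background probe sets were those of 105 genes. Exact permutation tests were run in Python 3.11.15 with numpy 2.4.6, pandas 2.3.3 and scipy 1.17.1, on 8 mice, with p adjusted by Benjamini-Hochberg over all pairs or genes and 0.05 as threshold, and were tested on simulated data. The labels call the arrays 8 replicates, and p-values also cover differences of the assay. Members, lists and tests were chosen with earlier results of these data known. Genes named are all members, and of each list the 3 brightest detected genes, the most variable one and up to 2 above background on no array, with the 3 genes most like each detected member; the pairs of members named were chosen by role, with the highest and the lowest. Some names from lists of other cells were left out for room, and Vegfa, Angpt1, Angpt2, Pdgfb, Olig1, Mog, Mag, Gpr17 and Ppbp were named outside this rule after their values were seen. Alternatives were quantile normalization, median scaling, adding 32 before log2, averaging a gene's probe sets, other thresholds, no filter, Spearman's rho and each mouse left out.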

Additional observations from a re-analysis of the deposited data

Results flagged for a closer look

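Of 46 probe sets and genes examined (the 19 probe sets of the 10 genes and the other genes named from the vessel lists), 3 had 1 mouse far from the other 7 by Dixon's criterion, where chance flags about 1 in 20. Rgs5 probe set 1420942_s_at was 1381.3 in mouse 6, and the nearest other mouse 1140. Emcn was 4493 in mouse 1, and the nearest other mouse 3691. Mylk was 2837 in mouse 1, and the nearest other mouse 3513.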

How the results depend on the processing

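All 10 genes were detected when the threshold had to be passed on at least 4 arrays, 5 with the 99th percentile and 6 with the mean of all probe sets; quantile normalization and median scaling left 8, as did leaving out any mouse. Of the 90 other vessel genes 57 to 82 were detected over these thresholds, against 75. The share of all genes in these other settings was not computed, so these counts have no background beside them. The median SD of the 10 genes was 0.25 to 0.30 with 1 mouse left out. With the mean of all probe sets the SD became 0.07 for Flt1, 0.22 for Rgs5 and 0.58 for Cspg4. Genes with an SD over 0.5 numbered 0 on log2 of the signal plus 32 and 2 with the mean of all probe sets, and 0 to 1 with a mouse left out. Pairs of members with r above 0 and unadjusted exact p under 0.05 numbered 2 of 28 with median scaling and 2 of 45 with no filter. The share over all pairs was 5.98% and 4.60% in these settings. With a mouse left out 1 to 3 such pairs were found. The 3 were without mouse 4, where the share over all pairs was 5.63%. After adjustment 0 passed in any of these settings, which the design all but fixes. With a mouse left out there are 5040 pairings, and at least 367 pairs would need the smallest possible exact permutation p of 0.000198. Genes whose 2 brightest probe sets agreed numbered 0 by Spearman's rho, and 0 to 1 with a mouse left out. With the mean of all probe sets the sign of r turned for Pecam1 with Cdh5 (0.000653), Kdr with Flt1 (-0.35), Pdgfrb with Rgs5 (-0.32), Pdgfrb with Cspg4 (-0.22) and Cdh5 with Pdgfrb (-0.0447), and by rho for Pdgfrb with Cspg4 (-0.0476). With a mouse left out r ran from -0.57 to 0.0274 for Pecam1 with Cdh5, from -0.13 to 0.52 for Tek with Tie1, from -0.26 to 0.70 for Pdgfrb with Rgs5 and from -0.0942 to 0.49 for Pdgfrb with Cspg4. The cause of these changes was not tested. No paired analysis was possible because the study has 1 group.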
